A study of Mus musculus with 8 samples.

Results

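The keratin gene family was taken as every gene symbol made of Krt, a number and at most 1 lower-case letter, which gave 54 of the 55276 symbols in the count table, 28 of type I and 26 of type II. Keratin-associated proteins and symbols ending in -ps were not included, and 1 member, Krt74, is annotated as a unitary pseudogene. The cells came from esophageal epithelium of C57BL6 mice aged 14 to 15 weeks, with no other genotype or agent given in the labels. All excluded DAPI (live cells) and were positive for the surface receptor integrin beta-1, and they differed in the fluorescence of Cyto-ID, a dye of autophagic vesicles. The Cyto-ID Low group had 4 libraries and the Cyto-ID High group had 4, from 2 female and 2 male animals (Female1, Female2, Male1, Male2) that each gave 1 library of either group. The libraries held 26285150 to 29301054 counts. A level is given as CPM, a gene's counts scaled to a common library total with edgeR's trimmed-mean factor, and after that factor the effective totals ran from 19447664 (Male2 High) to 36422811 (Female2 Low). In such bulk samples, fewer cells of a type and less RNA per cell cannot be told apart.

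Keratins form the intermediate filaments of epithelial cells. A filament is built from pairs of 1 type I and 1 type II chain, and cells switch pairs as they mature. In stratified epithelia the basal cells make Krt5 with Krt14 and, in part, Krt15, while suprabasal cells of the esophagus and oral mucosa make Krt4 with Krt13. The epidermis instead makes Krt1 with Krt10 above its basal layer, and Krt6a, Krt6b, Krt16 and Krt17 are known from wounds, appendages and other proliferating epithelium. Filaments are tied to desmosomes and hemidesmosomes by linker proteins such as desmoplakin and dystonin.

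The genes lie in 2 clusters of 27 members each in GRCm38, one on chromosome 11 from 99232761 (Krt222) to 100269871 (Krt42) and one on chromosome 15 from 101347444 (Krt80) to 102032027 (Krt18). All type I members but Krt18 were on chromosome 11. Of the 54 members, 36 had a RefSeq promoter window and in 30 of these its start lay within 50 bases of the GENCODE gene start. The 250 bases before the start are printed for 2 members that fell in Cyto-ID High (Krt5 and Krt20) and 3 that rose (Krt13, Krt23 and Krt78), to show what these sequences share although the genes moved in opposite directions. They were chosen after their values were seen, and they come from RefSeq (GRCm38.p6, minus strand) at chr15:101712906-101713155, chr11:99438154-99438403, chr11:100121567-100121816, chr11:99493121-99493370 and chr15:101954288-101954537. Their start is the one RefSeq gives. Capitals mark the letters CACCC on either strand (GGGTG as printed) and the ATAAAA nearest the start, and each sequence ends 1 base before the RefSeq start.
Krt5: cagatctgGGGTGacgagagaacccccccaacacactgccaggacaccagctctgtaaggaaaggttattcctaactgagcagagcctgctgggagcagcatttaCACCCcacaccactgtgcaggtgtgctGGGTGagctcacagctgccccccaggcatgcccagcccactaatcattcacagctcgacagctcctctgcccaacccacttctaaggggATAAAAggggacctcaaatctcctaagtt
Krt20: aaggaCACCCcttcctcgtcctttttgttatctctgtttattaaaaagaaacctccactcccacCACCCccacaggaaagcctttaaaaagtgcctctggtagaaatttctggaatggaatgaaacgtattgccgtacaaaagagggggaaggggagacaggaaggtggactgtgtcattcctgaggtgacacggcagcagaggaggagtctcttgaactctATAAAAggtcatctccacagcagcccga
Krt13: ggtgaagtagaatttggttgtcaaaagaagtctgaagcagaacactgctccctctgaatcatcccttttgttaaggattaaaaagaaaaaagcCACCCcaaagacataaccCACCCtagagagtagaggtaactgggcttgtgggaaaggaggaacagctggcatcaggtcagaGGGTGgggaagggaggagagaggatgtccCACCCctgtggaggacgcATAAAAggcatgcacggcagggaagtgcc
Krt23: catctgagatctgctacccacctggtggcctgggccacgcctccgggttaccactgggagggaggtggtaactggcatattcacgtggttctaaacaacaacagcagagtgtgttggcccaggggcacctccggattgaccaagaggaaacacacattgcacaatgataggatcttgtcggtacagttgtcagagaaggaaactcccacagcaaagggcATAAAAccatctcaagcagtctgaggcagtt
Krt78: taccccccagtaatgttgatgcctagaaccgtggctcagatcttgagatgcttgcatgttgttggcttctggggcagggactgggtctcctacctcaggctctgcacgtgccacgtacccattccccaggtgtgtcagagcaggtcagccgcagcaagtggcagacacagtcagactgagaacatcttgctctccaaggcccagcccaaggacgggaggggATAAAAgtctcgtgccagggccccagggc
ATAAAA began at position -29 from the RefSeq start in Krt5, Krt13 and Krt78, at -28 in Krt20 and at -31 in Krt23. On the gene's own strand and 40 to 20 bases upstream, ATAAAA was present in 13 of the 30 keratin windows and in 1.59% of all 32851 RefSeq windows. This motif was chosen after the sequences were read. By call, it was in 5 of 8 windows of keratins that rose, 3 of 3 that fell and 1 of 10 that did not pass. Krt10, Krt2 and Krt36 rose without it, and this split was not tested. CACCC was found on either strand in 23 of 30 keratin windows and in 52.0% of all windows, the related TATAAA in 15 and 12.4%, and TGANTCA in 1 and 6.75%. GCCNNNGGC was found in 3 of 30 and in 13.7% of all windows. These are matches of letters only.

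Of the 54 keratins, 35 had enough counts to be tested, and 20 of them differed between the groups (quasi-likelihood F-test of edgeR at a threshold of 0.05, with Benjamini-Hochberg adjustment over 17344 genes). This is 57.1% of the tested members, against 48.7% of all tested genes. The 14 that rose in Cyto-ID High were 40% of the tested members, against 23.4% of all tested genes, and the 6 that fell were 17.1%, against 25.3%. All 20 moved in 1 direction in all 4 animals, but they were called on these same libraries, so this is no separate support. For 17 of the 35 tested members the CPM of the groups did not overlap, the same share as the 48.6% of all tested genes. For 4 of the 20, all 4 libraries passed the count minimum in the group with the higher level alone, which was High for Krt2 and Krt84 and Low for Krt20 and Krt75, so the filter bears on these calls. The median log2 fold change was 0.07 over the tested members and -0.09 over all tested genes. With scaling by total counts alone, the median of all tested genes was -0.64, a shift of -0.55, and 12 members rose and 7 fell, against 12.6% and 49.1% of all tested genes under that scaling. It also moved 9 called members by over 1.5-fold with the call kept: the log2 fold change became 1.44 for Krt32, 2.04 for Krt35, 0.73 for Krt36, 3.04 for Krt80, 1.35 for Krt84, 3.50 for Krt2, 3.16 for Krt4, 2.48 for Krt13 and -2.71 for Krt15. By type, 8 of 18 tested type I members rose and 4 fell, and 6 of 17 tested type II members rose and 2 fell. The 19 untested members had at most 17 counts in any library, and most belong to the inner root sheath or the hair shaft.

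**Figure D1:**
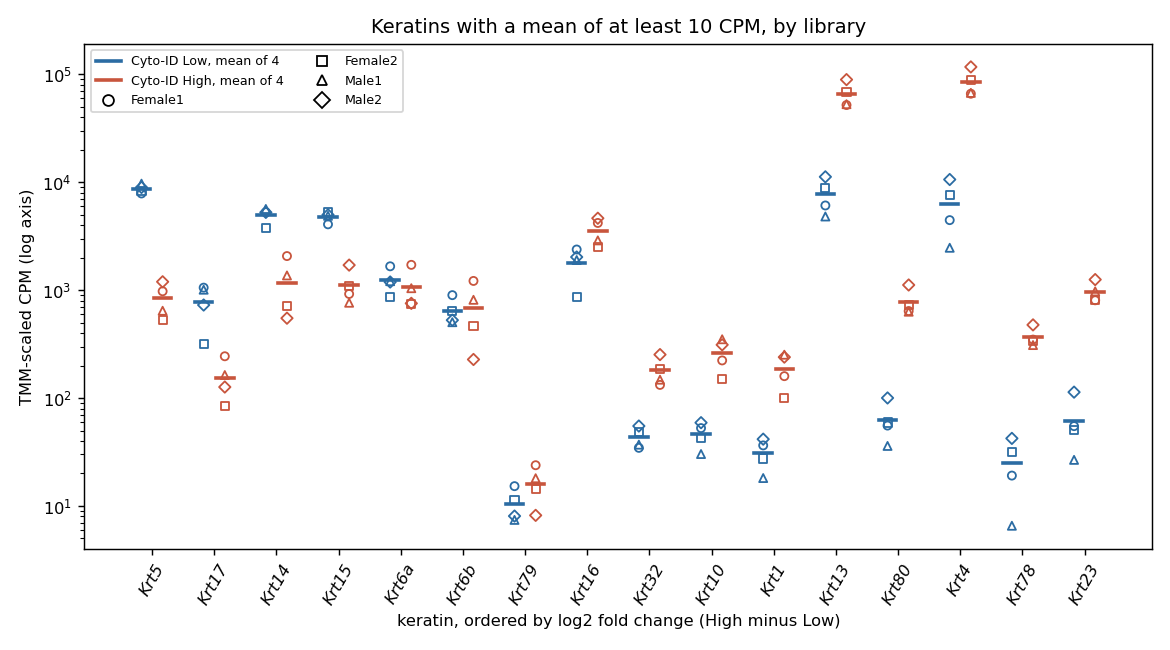
Level of each abundant keratin by library, on a log scale of CPM, with 1 point per library and the group mean. Krt5, Krt14 and Krt15 sit lower in all 4 Cyto-ID High libraries than in any Cyto-ID Low library, and Krt4 and Krt13 sit higher.

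The basal keratins fell together, 3 of 3, against 25.3% of all tested genes. Krt5, the type II keratin of basal cells, measured 7883, 8276, 9718 and 8965 CPM in Cyto-ID Low (Female1, Female2, Male1, Male2, the order used throughout) and 977, 533, 645 and 1197 CPM in Cyto-ID High. The groups were far apart, and the level fell by 3.38 on the log2 scale (SE 0.28, adjusted p 1.83e-05 by edgeR). Krt14, its type I partner, measured 5280, 3802, 5662 and 5265 CPM in Low and 2072, 708, 1370 and 550 CPM in High. It fell by 2.11 (SE 0.41, adjusted p 0.00188 by edgeR), with no overlap but a wide spread in High. Krt15, the other type I keratin of basal cells, measured 4080, 5287, 4894 and 4994 CPM in Low and 923, 1094, 765 and 1709 CPM in High. Its fall was 2.11 as well (SE 0.26, adjusted p 0.000137 by edgeR), again without overlap. In the High libraries Krt14 was highest in Female1 and lowest in Male2, whereas Krt5 and Krt15 were both highest in Male2.

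Both mucosal suprabasal keratins rose, against 23.4% of all tested genes. Krt4, the type II chain, measured 4461, 7629, 2474 and 10616 CPM in Low and 66258, 89512, 67465 and 117390 CPM in High, a log2 fold change of 3.75 (SE 0.46, adjusted p 0.000134 by edgeR). Krt13, its type I partner, measured 6100, 8942, 4821 and 11243 CPM in Low and 52049, 68299, 53012 and 89556 CPM in High, a log2 fold change of 3.07 (SE 0.33, adjusted p 6.16e-05 by edgeR). Neither overlapped between groups, and both varied within Low, where Male1 was lowest and Male2 highest.

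Of the 5 keratins of suprabasal and palmoplantar epidermis, 4 were tested and 3 rose, against 23.4% of all tested genes. Krt1 measured 36.4, 27.5, 18.1 and 41.6 CPM in Low and 160, 100, 252 and 240 CPM in High, a log2 fold change of 2.53 (SE 0.33, adjusted p 0.000168 by edgeR). Its partner Krt10 measured 52.7, 43.1, 30.3 and 59.1 CPM in Low and 223, 151, 351 and 312 CPM in High, a log2 fold change of 2.43 (SE 0.28, adjusted p 9.86e-05 by edgeR). All 4 High libraries lay above all 4 Low libraries for both genes, and Female2 was lowest in High. Krt2, a keratin of the upper epidermis, was near the floor of detection in Low with 1 to 7 counts, and 23 to 145 counts in High. Its log2 fold change of 4.12 (SE 0.84, adjusted p 0.00269 by edgeR) was 3.19 without the Male2 High library, which had 145 of those counts, 3.52 without Male2 Low, 2.93 without both Male2 libraries and 4.83 without both Female2 libraries. Krt77 stayed within 0.309 to 3.59 CPM and Krt9 was not tested.

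Of the 6 wound and appendage keratins, 1 rose, 2 fell and 3 did not pass, a share called near the 48.7% of all tested genes. Krt16 measured 2383, 864, 1903 and 2030 CPM in Low and 4201, 2535, 2894 and 4645 CPM in High. The groups did not overlap and the log2 fold change was 1.00 (SE 0.32, adjusted p 0.0279 by edgeR), but under total counts it was 0.44 with an adjusted p of 0.256. The call was also lost without Female1 High (0.83, adjusted p 0.0833), Male1 Low (1.00, adjusted p 0.0562), Male2 High (0.86, adjusted p 0.0725) or both Male2 libraries (0.95, adjusted p 0.0791), while with the animal as a block it had an adjusted p of 0.00219 by edgeR. Krt17 measured 1056, 318, 1011 and 729 CPM in Low and 244, 84.8, 164 and 127 CPM in High, and it fell by 2.32 (SE 0.43, adjusted p 0.00151 by edgeR) without overlap. Krt6a measured 1665, 858, 1212 and 1191 CPM in Low and 1718, 740, 1043 and 755 CPM in High, with a log2 fold change of -0.23 (SE 0.30, adjusted p 0.583 by edgeR). Krt6b measured 900, 642, 505 and 528 CPM in Low and 1218, 470, 815 and 228 CPM in High, with a log2 fold change of 0.07 (SE 0.39, adjusted p 0.905 by edgeR) that was -0.40 under total counts and -0.13 with the animal as a block. Their groups overlapped throughout. Krt75, a keratin of the hair follicle companion layer, held 0.261 to 2.22 CPM and fell by 1.64 (SE 0.49, adjusted p 0.0199 by edgeR) with overlapping groups. That call was lost without Female1 Low (adjusted p 0.0949), Female2 High (0.0569) or Male1 Low (0.0800).

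Several of these genes are close in sequence, which bears on the counts because the counting of shared reads is not given in the sources used here. Of the 50-base windows in their exons, 44.8% of those of Krt6a and 44.8% of those of Krt6b were shared with another keratin, in the main with each other. The share was 13.9% for Krt14, 12.4% for Krt16 and 7.36% for Krt5, and 0 for Krt4, Krt13, Krt23, Krt78, Krt80, Krt1 and Krt10. The levels of Krt6a and Krt6b are therefore uncertain as separate values. Exons of Krt5, Krt6a, Krt6b, Krt7, Krt8, Krt10, Krt32, Krt75, Krt76, Krt80 and Krt90 also overlap a predicted gene (a Gm symbol) on the other strand, and those of Krt12 a Rik gene, and strandedness is not given.

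In the High libraries Krt14, Krt6a, Krt6b and Krt17 were higher in Female1 and Male1 than in Female2 and Male2. The summed CPM of 9 fibroblast markers moved the same way there, with 503, 171, 363 and 60.04 CPM in the High libraries of Female1, Female2, Male1 and Male2, against 398 to 579 CPM in Low. The leukocyte, endothelial, muscle, mesothelium and Merkel sums had the same order in High, Female1 and Male1 above Female2 and Male2. The labels do not say what the animal number marks. With that number as a covariate, 21 keratins differed, 15 higher and 6 lower, and 54.5% of all tested genes did. The part of RNA from other cell types in these levels was not tested.

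Of the 6 simple epithelial keratins, 2 rose, 1 fell and 3 did not pass, again near the 48.7% of all tested genes. Krt23, a type I keratin, measured 54.9, 50.4, 26.7 and 114 CPM in Low and 806, 816, 975 and 1254 CPM in High. The lowest High library stood far above the highest Low library, and the log2 fold change was 3.97 (SE 0.40, adjusted p 4.22e-05 by edgeR). Krt20, a keratin of the gut lining, was rare, with 22 to 116 counts in Low and 7 to 14 in High. It measured 3.58, 0.605, 2.73 and 2.41 CPM in Low and 0.386, 0.305, 0.267 and 0.720 CPM in High, and fell by 2.49 (SE 0.56, adjusted p 0.00450 by edgeR), with 1 Low library inside the High range. Its fall was 1.85 without Female1 Low. Krt19 rose by 0.85 (SE 0.29, adjusted p 0.0323 by edgeR), with 0.963 to 2.06 CPM in Low and 1.34 to 4.83 CPM in High. Its groups overlapped, and the call was lost in 6 of the 8 fits that left out 1 library (adjusted p 0.0633 to 0.125), under total counts (0.28, adjusted p 0.437), with no filter, with no covariate and without both Female2 libraries (0.71, adjusted p 0.112).

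Krt8 and Krt18 partner each other in simple epithelia. Krt8 measured 1.64, 1.90, 1.65 and 1.36 CPM in Low and 2.01, 3.09, 1.83 and 0.103 CPM in High, with a log2 fold change of -0.01 (SE 0.57, adjusted p 0.990 by edgeR) that was 0.057 with RLE factors. Krt18 measured 11.5, 7.07, 7.30 and 5.98 CPM in Low and 9.30, 3.87, 7.09 and 0.412 CPM in High, with a log2 fold change of -0.64 (SE 0.59, adjusted p 0.411 by edgeR). With no filter Krt18 passed (-0.69, adjusted p 0.0254 by edgeR), and with 1 library left out its value ran from -1.40 to -0.25. In both genes the Male2 High library was the lowest of the 8. That library was also the lowest of the 8 in summed leukocyte, muscle and mesothelium markers (10.1, 6.64 and 0.309 CPM, against at least 33.1, 28.99 and 1.57 CPM in the others) and in fibroblast markers. Krt8 and Krt19 were both highest in the Female2 libraries of each group, where the 13 gastric and columnar markers in the table summed to 20.04 CPM in Low and 117 CPM in High, against 0.870 to 1.62 CPM in the other 6 libraries. The part of other cell types in these 3 keratins was not tested. Krt7 measured 2.53 to 6.52 CPM with a log2 fold change of -0.33 (SE 0.27, adjusted p 0.346 by edgeR), and under total counts it passed as lower (-0.86, adjusted p 0.0351).

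Of the 15 hair shaft keratins, 6 were tested and 4 rose, against 23.4% of all tested genes. Krt32 measured 34.6, 48.1, 37.0 and 55.1 CPM in Low and 132, 187, 148 and 253 CPM in High, a log2 fold change of 2.04 (SE 0.23, adjusted p 8.75e-05 by edgeR). The other 3 were rare. Krt35 went from 0.590 to 0.845 CPM in Low to 3.47 to 6.17 CPM in High (2.63, SE 0.29, adjusted p 6.46e-05 by edgeR). Krt36 went from 1.27 to 2.11 CPM to 2.89 to 5.04 CPM (1.31, SE 0.26, adjusted p 0.00228 by edgeR), and Krt84 from 0.220 to 0.332 CPM to 0.724 to 1.39 CPM (1.94, SE 0.40, adjusted p 0.00265 by edgeR). None of the 4 overlapped between groups, as was so for 48.6% of all tested genes. Krt84 had only 8 to 11 counts in Low and 19 to 31 in High. It passed the count minimum in 1 Low library and in 4 High libraries. Of the hair follicle and nail markers that are not keratins, 10 were in the table and 3 could be tested, of which 1 rose and 1 fell, and 2 had no count in any library. Over all tested genes, 23.4% rose and 25.3% fell. Krt31 and Krt39 did not pass. The 8 inner root sheath keratins had 2 tested members, Krt25 and Krt71, and the corneal keratin Krt12 was tested, with none passing.

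Of the 8 less studied members, 5 were tested, of which 2 rose and 0 fell. Of all tested genes, 23.4% rose and 48.7% differed in either direction. Krt78 measured 19.1, 31.7, 6.55 and 42.3 CPM in Low and 348, 341, 310 and 477 CPM in High (3.89, SE 0.50, adjusted p 0.000179 by edgeR), and 4.52 without Male2 Low. Krt80 measured 55.6, 59.4, 36.0 and 100.2 CPM in Low and 641, 734, 632 and 1117 CPM in High (3.63, SE 0.33, adjusted p 2.73e-05 by edgeR). Both were separated completely between groups. Krt79 measured 15.3, 11.3, 7.42 and 8.06 CPM in Low and 23.8, 14.2, 18.1 and 8.18 CPM in High. It was higher in 4 of 4 animals, but its log2 fold change of 0.64 (SE 0.26) had an adjusted p of 0.0704 by edgeR, and 0.0418 with the animal as a block.

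Levels between genes were compared per kilobase of exon. In Low, Krt13 (4270 CPM per kb), Krt5 (3965), Krt4 (2951), Krt14 (2845), Krt15 (2724) and Krt16 (1147) exceeded 1000 CPM per kb. In High only Krt4 (39923), Krt13 (36095) and Krt16 (2280) did. Basal keratins made up 50.1% ± 8.4 of the family's counts per kb in Low and 2.16% ± 0.776 in High (SD, n = 4 each). Mucosal suprabasal keratins made up 36.2% ± 11.7 and 92.4% ± 2.46, and wound and appendage keratins 12.96% ± 4.97 and 4.01% ± 1.56. The family took 4.54% ± 0.668 of all counts in Low and 13.1% ± 1.37 in High, and without Krt4 and Krt13 2.83% ± 0.134 and 0.945% ± 0.258. A share has a sum that is fixed, so one member's rise lowers the others.

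**Figure D2:**
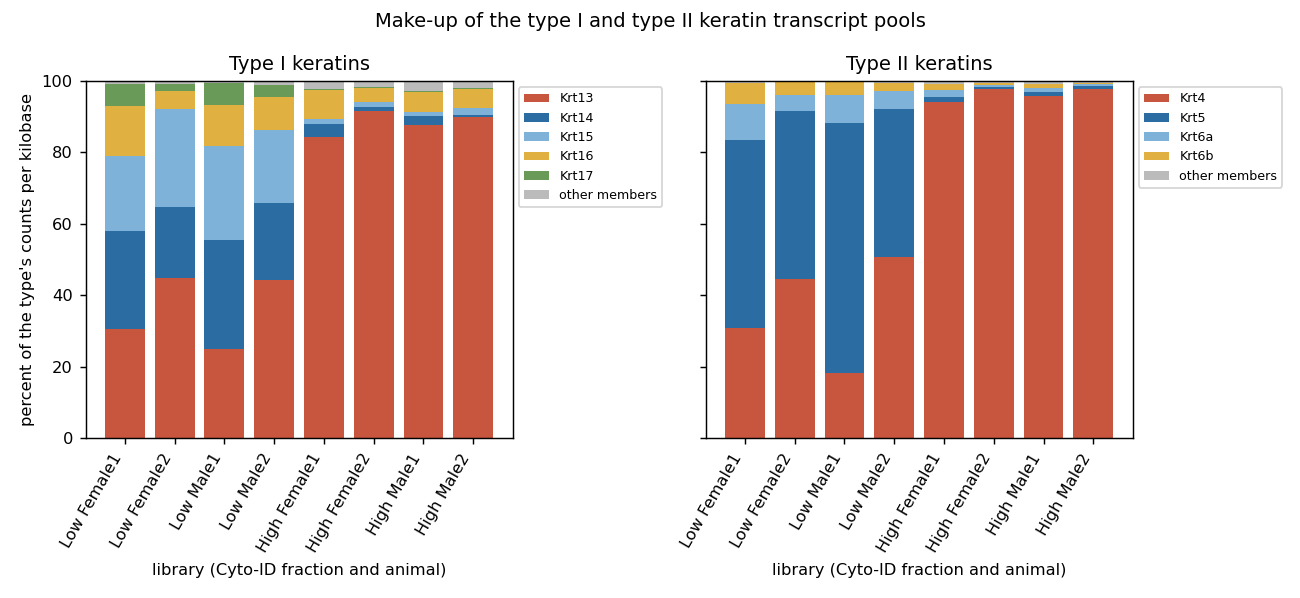
Share of the keratin counts per kilobase held by each abundant member, within type I and within type II, by library. In type II, Krt4 held 18.3% to 50.6% in Cyto-ID Low and at least 94.1% in Cyto-ID High.

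Within type I, Krt13 held 36.3% ± 10.0 of counts per kb in Low and 88.5% ± 3.12 in High, and Krt14 held 24.8% ± 4.98 and 1.85% ± 1.33. Within type II, Krt5 held 52.8% ± 12.3 and 0.942% ± 0.321. The ratio of type I to type II counts per kb was 1.51 ± 0.15 in Low, with a range of 1.36 to 1.67, and 0.988 ± 0.0333 in High, with a range of 0.952 to 1.02. The 2 ranges did not overlap, and no test was made on sums over members.

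Because the 2 genes of a partner pair are read in the same library, their ratio does not depend on how libraries are scaled. For Krt4 over Krt13 the log2 count ratio was -0.43 ± 0.39 in Low and 0.37 ± 0.02 in High (SD, n = 4 each), a difference of 0.80 that was positive in 4 of 4 animals (exact permutation test, two-sided p 0.0286, 0.0714 adjusted over the 5 pairs). For Krt6a over Krt16 it was -0.49 ± 0.33 and -1.79 ± 0.59, a difference of -1.30 that was negative in 4 of 4 animals (exact permutation p 0.0286, adjusted 0.0714). For Krt5 over Krt14 it was 0.81 ± 0.23 and -0.37 ± 1.04, and 3 animals were lower in High while Male2 was higher by 0.35 (difference -1.18, exact permutation p 0.114, adjusted 0.179). Krt8 over Krt18 differed by 0.68 (exact permutation p 0.200, adjusted 0.200) and Krt1 over Krt10 by 0.12 (exact permutation p 0.143, adjusted 0.179). Both of these differences were also positive in 4 of 4 animals. None of the 5 passed after adjustment, and 0.0286 is the smallest exact p that 4 against 4 libraries allow. Krt4 over Krt13 and Krt6a over Krt16 were both at that p. Adjustment over 5 pairs made it 0.0714, so neither could pass unless more pairs reached it, and the test cannot decide on them.

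**Figure D3:**
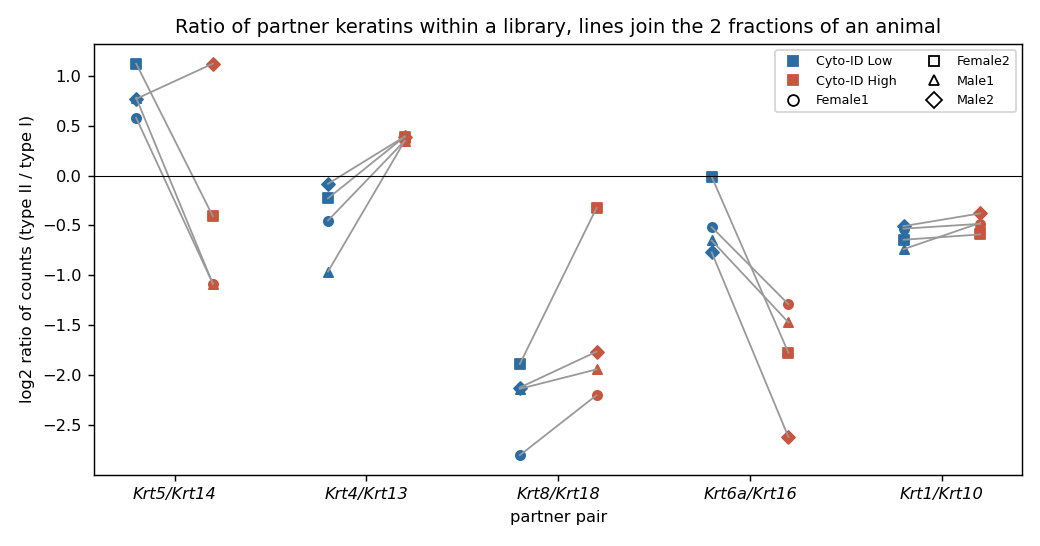
Log2 ratio of type II to type I partner counts, by library, for 5 pairs, with lines joining the libraries of 1 animal. Krt4 over Krt13 lies between 0.35 and 0.39 in the 4 Cyto-ID High libraries, and Krt5 over Krt14 is highest among the High libraries in Male2 at 1.12.

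Along chromosome 11, Krt32, Krt35, Krt36 and Krt13 stand next to each other and all 4 rose, while the next gene, Krt15, fell. Beyond it Krt19 rose, Krt14 fell, Krt16 rose and Krt17 fell. On chromosome 15, Krt5 fell between Krt6a, which did not pass, and Krt71, which did not pass either, and Krt2 and Krt1 rose side by side. On chromosome 11, 8 of 17 tested members rose and 4 fell, and on chromosome 15, 6 of 18 rose and 2 fell. The share called was 70.6% and 44.4%, against 48.7% of all tested genes.

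**Figure D4:**
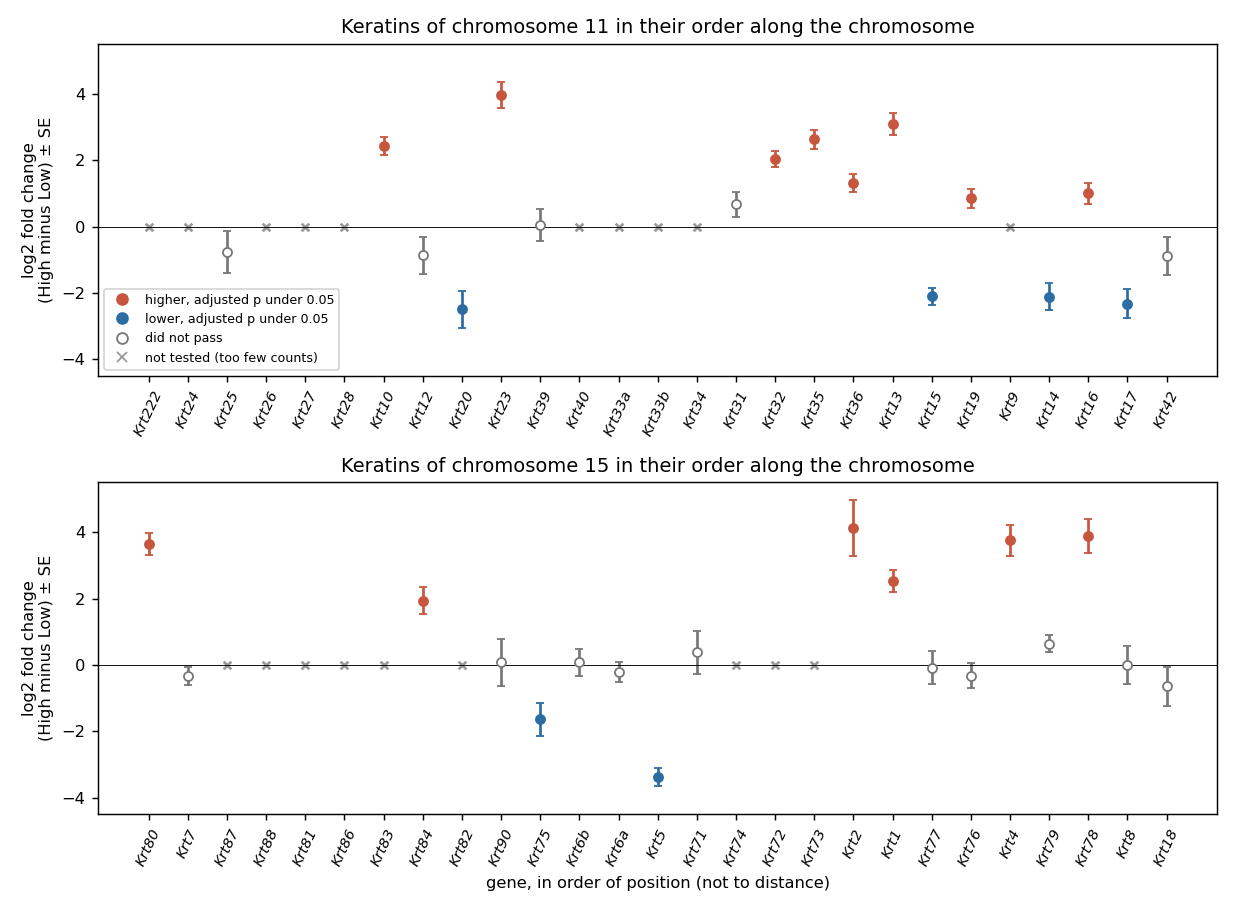
Log2 fold change (Cyto-ID High minus Cyto-ID Low) ± SE of each keratin in its order along chromosomes 11 and 15, with filled points for an adjusted p under 0.05 and crosses for members not tested. Krt13, at 3.07, has Krt15, at -2.11, as its neighbour.

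Of 11 genes listed as keratin linkers, 8 rose and 2 fell, with a median log2 fold change of 1.47. Of all tested genes, 23.4% were higher and 25.3% lower. The risers include Eppk1 (1.24, SE 0.45, adjusted p 0.0431 by edgeR, groups overlapping) and Macf1 (1.47, the median itself), which are not established linkers of keratin to junctions. The higher count was 7 under total counts, with robust fitting, without both Male2 libraries and in 6 of the 8 fits that left out 1 library. The fallers were Dst (dystonin, a hemidesmosome linker), from 1429 ± 313 to 125.2 ± 56.4 CPM (SD, n = 4 each; -3.54, SE 0.31, adjusted p 2.21e-05 by edgeR), and Plec (plectin, also of hemidesmosomes), from 374 ± 70.8 to 157 ± 34.7 CPM (-1.26, SE 0.21, adjusted p 0.000849 by edgeR), the latter named after its values were seen. Dsp (desmoplakin, of desmosomes) went from 2742 ± 412 to 11323 ± 1578 CPM (2.04, SE 0.20, adjusted p 3.62e-05 by edgeR). The cornified envelope linkers Ppl and Evpl rose by 3.25 (SE 0.30) and 3.07 (SE 0.25) on the log2 scale (edgeR adjusted p 2.64e-05 and 1.83e-05). Under total counts Dst had -4.15 and Ppl 2.67. Of 16 other intermediate filament genes, 12 were tested, and Synm (2.75, SE 0.26) rose while the lamins Lmnb1 (-1.77, SE 0.16) and Lmnb2 (-0.80, SE 0.21, adjusted p 0.0106 by edgeR) fell.

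The labels call the cells squamous and the sorted populations basal. All 11 squamous keratinocyte markers were tested, and their summed level was 9519 to 12050 CPM in Low and 12575 to 19661 CPM in High, with 5 higher and 5 lower. The 4 with the largest change all fell, by log2 fold changes of -3.86 (Col17a1, SE 0.32), -3.62 (Itgb4, SE 0.27), -2.82 (Itga6, SE 0.17) and -2.06 (Trp63, SE 0.20). The higher sum in High thus joins markers that moved in opposite directions. For comparison, 23.4% of all tested genes rose and 25.3% fell. Of 11 markers of cornifying epithelium, 9 rose and 0 fell, with a median log2 fold change of 3.10 and sums of 1389 to 4111 CPM in Low and 24851 to 39040 CPM in High. Markers of gastric, mesothelial, Merkel, hair, endothelial and muscle cells summed to at most 117 CPM in any library. Of 10 dissociation stress genes 2 rose and 2 fell, with sums of 15009 to 18988 CPM in Low and 10319 to 21488 CPM in High.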

How the data were processed

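RNA from 8 libraries, 4 per Cyto-ID group, was measured by bulk sequencing. The authors deposited counts in 1 table by gene symbol; the unit follows from its whole numbers, whose totals differ between libraries. The submitters' processing notes name STAR 2.7.3, DESeq2 and the build GRCm38; the counting tool and strandedness are not given in the sources used here. Gene positions, exon lengths (53388 of 55276 symbols) and shared 50-base windows came from GENCODE mouse M21, and promoter windows from RefSeq.

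In R 4.3.3, counts were fitted with edgeR 4.0.16 (filterByExpr, trimmed-mean scaling, glmQLFit and glmQLFTest, sex as covariate, all 8 libraries). P-values were adjusted by Benjamini-Hochberg over 17344 genes at 0.05, and tests were two-sided. Partner ratios used counts plus 0.5 and an exact permutation test, with adjustment over 5 pairs. The main fit and the permutation test did not use the animal, which entered as a block in an alternative, with libraries paired by the animal name they share. Across genes, deviations from the group means correlated at 0.43 (Female1), 0.32 (Female2), -0.02 (Male1) and 0.28 (Male2) within animals, and at -0.37 to 0.35 between different animals, the highest being Male1 High with Female1 Low, so the pairing rests on the names. The fit was tested on simulated data. The p-values and SE of the main fit, and the permutation p, measure the spread between libraries of a group, 1 per animal. They cover no error beyond it.

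Any keratin could be named; values in every library are given for members with a mean of at least 10 CPM and for partner pairs. From other lists at most 4 genes were named, those with the largest change among genes past the threshold with at least 5 CPM. Plec, Eppk1 and Macf1 were added after their values were seen, as were the values of Krt20 in every library. The members and lists were chosen with earlier results of these data known. Alternatives were RLE factors, total counts, scaling without keratins, no filter, 10 counts in every library, robust fitting, DESeq2 1.42.0, limma-voom (limma 3.58.1), no covariate, the animal as a block and each library left out. The animal number as a covariate, and leaving out both libraries of Female2 or Male2, were added after seeing the data.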

Additional observations from a re-analysis of the deposited data

Results flagged for a closer look

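In 186 groups of 4 libraries examined, 10 held a library whose gap to its nearest neighbour was large against the group's range, where chance gives about 1 in 20. Of the 35 tested keratins, Krt25 stood apart in Female1 Low at 0.618 CPM, the highest of its group, and Krt2 in Male2 High at 7.46 CPM, also the highest. No partner ratio was among them, and of the shares only that of hair shaft keratins in the family's counts per kb was, in Female1 High at 0.124%. Dst and Lmnb1 stood apart in Male2 High, at 209 and 50.5 CPM, each the highest of its group. The summed level of 16 other intermediate filament genes stood apart in Female2 Low at 1112 CPM, the lowest of its group, and in Male2 High at 1832 CPM, the highest of its group. The summed gastric and columnar markers stood apart in Female2 in both groups, at 20.04 CPM in Low and 117 CPM in High. The summed muscle markers stood apart in Female1 Low at 79.1 CPM.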

How the results depend on the processing

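The count of keratins that differed ran from 16, of 22 tested with at least 10 counts required in every library (72.7%, against 58% of all genes tested there), to 21, and from 17 to 20 when 1 library was left out. It was 19 without the Female2 animal and 20 without the Male2 animal, both chosen after seeing the data. With the animal as a replicate block, which uses the pairing by name, 21 keratins differed (15 higher, 6 lower), as did 9336 of all 17344 tested genes (53.8%), and Krt79 was the only keratin to gain a call. Sign flips within animals gave no ratio a smaller p than 0.125, the least that 4 pairs allow. Under total counts, 2194 genes were higher and 8514 lower, against 4055 and 4385. Of 27 called genes examined, 24 stayed on their side of the threshold in the same direction under each alternative run, and Krt16, Krt19 and Krt75 did not. In 6 genes that were not called, the direction reversed. Krt39 had -0.49 under total counts, -0.10 without Female2, -0.045 without Male2 and -0.21 to 0.62 with 1 library left out. Krt90 had -0.40 under total counts, -0.36 with limma-voom, -0.23 with the block, -0.18 with the animal number and -0.59 to 0.42 with 1 library left out. Krt6b had -0.40, -0.15, -0.13 and -0.13 under the same 4, and -0.36 to 0.34 with 1 left out. Krt71 had -0.10 under total counts, -0.046 with limma-voom and -0.27 to 0.79. Krt77 had 0.16 without Female2, 0.21 without Male2 and -0.75 to 0.20. Krt8 had 0.057 with RLE factors, 0.047 with scaling without keratins, 0.038 with DESeq2, 0.11 with no covariate, 0.46 without Male2 and -0.47 to 0.43. The cause was not tested. Low counts limit the members under 10 CPM.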
